A study of Mus musculus with 2 samples.

Results

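The variable (V) genes of the alpha-beta T-cell receptor were followed across the T cells of pancreatic islets in 2 droplet single-cell RNA-seq libraries. Their members were chosen by a count: gene symbols starting with Trav (alpha chain) or Trbv (beta chain) with at least 10 unique molecular identifiers (UMIs) summed over both libraries. The 2 libraries hold 163 such V symbols among 32285 genes, and 79 of them passed, 58 Trav and 21 Trbv, with 13891 UMIs. Another 22 symbols had 1 to 9 UMIs and 62 had 0. One library came from WT NOD mice, the non-obese diabetic strain, in which T cells destroy the insulin-producing islet cells. The other was labelled NOD.Cxcl16-/-, the same strain without the chemokine gene Cxcl16. Both came from 12-week-old females whose islets were hand-picked after collagenase perfusion of the pancreas and dispersed without enzyme, and live CD45+ CD31- cells (leukocytes without endothelial cells) were sorted for 10x Genomics 3' v3.1 libraries. The labels do not say how many mice went into a library. Each genotype has 1 library, so no difference below has a replicate check and no p-value is given.

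In the thymus each T cell joins one V gene to short joining segments, with a diversity segment in the beta chain, and so makes 1 beta chain and 1 or at times 2 alpha chains. All descendants of a cell keep the same V genes, so a clone that has multiplied shows as many cells with one Trav and one Trbv. Receptors on CD8 T cells read peptides on MHC class I and those on CD4 T cells and regulatory T cells (Treg, which restrain the others) read MHC class II. Invariant chains mark some innate-like cells: Trav11 in invariant NKT cells and Trav1 in MAIT cells. In NOD mice, Trav5d-4 has been tied to receptors for an insulin B chain peptide, Trav16 with Trbv13-3 to a CD8 receptor for a peptide of the islet protein IGRP, and Trav8-1 with Trbv19 to an insulin-reactive CD8 clone. Antigen binding was not measured here. A 3' library primes at the end of the constant region, so few of its reads reach the V segment.

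The Trav genes lie on chromosome 14 (52427928 to 53977678, GRCm38) and include long duplicated stretches, whose copies carry a d or an n in their names. The Trbv genes lie on chromosome 6 (40891229 to 41558452). The 3 Trav16 genes, which together held 31.2% of the Trav UMIs in WT NOD and 25.1% in the library labelled NOD.Cxcl16-/-, show how close the copies are. Trav16n (chr14:53351028-53351621), Trav16d-dv11 (chr14:53047287-53047821) and Trav16 (chr14:53743104-53743705), all on the plus strand, end in the 240 bases below, with capitals in Trav16n where either of the others differs from it, and in the others where they differ from Trav16n.
Trav16n: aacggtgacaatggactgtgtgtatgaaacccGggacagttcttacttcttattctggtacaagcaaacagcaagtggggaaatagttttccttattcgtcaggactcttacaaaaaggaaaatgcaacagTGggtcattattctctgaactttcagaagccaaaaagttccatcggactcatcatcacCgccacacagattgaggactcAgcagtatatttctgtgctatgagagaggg
Trav16d-dv11: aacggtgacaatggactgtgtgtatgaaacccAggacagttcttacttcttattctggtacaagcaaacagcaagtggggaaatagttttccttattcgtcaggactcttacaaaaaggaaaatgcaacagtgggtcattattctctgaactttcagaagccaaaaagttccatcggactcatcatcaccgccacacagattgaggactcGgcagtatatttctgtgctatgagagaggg
Trav16: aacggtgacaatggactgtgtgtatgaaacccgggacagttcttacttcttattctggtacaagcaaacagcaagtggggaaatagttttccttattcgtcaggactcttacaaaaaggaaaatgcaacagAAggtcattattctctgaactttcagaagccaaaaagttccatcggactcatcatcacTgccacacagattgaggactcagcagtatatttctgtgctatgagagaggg
Trav16d-dv11 differed from Trav16n at 2 of these bases and Trav16 at 3.

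Trav8d-1 and Trav7-3 are shown because they were far lower in CD8 cells of one library. Trav8d-1 (chr14:52778447-52778995) has a near copy elsewhere in the locus. Its closest relative was Trav8-1 (chr14:53469756-53470232), at 1 substitution, shown in capitals.
Trav8d-1: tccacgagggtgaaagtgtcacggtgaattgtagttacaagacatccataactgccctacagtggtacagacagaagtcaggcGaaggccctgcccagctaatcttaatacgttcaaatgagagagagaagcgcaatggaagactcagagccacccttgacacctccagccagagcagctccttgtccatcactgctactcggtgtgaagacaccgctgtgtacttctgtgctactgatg
Trav8-1: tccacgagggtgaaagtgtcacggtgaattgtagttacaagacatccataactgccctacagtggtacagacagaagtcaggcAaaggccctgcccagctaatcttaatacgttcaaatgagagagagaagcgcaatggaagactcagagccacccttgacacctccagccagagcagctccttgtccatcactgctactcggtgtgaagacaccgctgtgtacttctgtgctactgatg
Trav7-3 (chr14:53443249-53443839) and its d copy Trav7d-3 (chr14:52744249-52744840) differed at 2 bases, again in capitals.
Trav7-3: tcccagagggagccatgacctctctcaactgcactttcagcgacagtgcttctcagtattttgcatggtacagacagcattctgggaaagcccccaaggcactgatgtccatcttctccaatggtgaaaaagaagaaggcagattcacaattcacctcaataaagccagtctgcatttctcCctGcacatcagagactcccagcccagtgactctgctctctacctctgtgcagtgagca
Trav7d-3: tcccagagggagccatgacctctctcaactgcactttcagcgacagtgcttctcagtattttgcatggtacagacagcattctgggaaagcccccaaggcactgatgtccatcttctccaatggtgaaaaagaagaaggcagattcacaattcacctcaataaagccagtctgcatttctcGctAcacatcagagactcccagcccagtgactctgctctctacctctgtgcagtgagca

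The Trbv genes shown here are far less alike. They are Trbv19, of the commonest CD8 pair in WT NOD, and genes that differed past 2-fold between T-cell classes or libraries. The last 60 bases of these 6 are printed with the codon of the last in-frame cysteine in capitals, the residue with which the V segment enters the third hypervariable loop.
Trbv3: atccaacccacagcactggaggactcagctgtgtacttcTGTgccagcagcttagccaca
Trbv19: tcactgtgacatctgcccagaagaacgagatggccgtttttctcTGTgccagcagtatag
Trbv15: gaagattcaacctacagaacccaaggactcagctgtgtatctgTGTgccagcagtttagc
Trbv20: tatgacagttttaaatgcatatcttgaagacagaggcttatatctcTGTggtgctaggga
Trbv2: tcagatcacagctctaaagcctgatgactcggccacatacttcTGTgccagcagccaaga
Trbv29: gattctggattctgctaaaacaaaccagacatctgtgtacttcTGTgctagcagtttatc
These genes span chr6:41048290-41048828 (Trbv3), chr6:41178375-41179048 (Trbv19), chr6:41141188-41141658 (Trbv15), chr6:41188273-41188977 (Trbv20), chr6:41047340-41047995 (Trbv2) and chr6:41271394-41271881 (Trbv29), all on the plus strand. All sequences are those of the GENCODE M21 transcripts on GRCm38, a C57BL/6 genome. NOD alleles were not used here.

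What a short read can say differs between the chains. Cut into windows of 90 bases, about the length of a 3' read, the median Trbv member had 100% of its windows in no other V gene, and the median Trav member 85.2%. Trav16n had 59.4% unique windows, Trav16d-dv11 58.0%, Trav8d-1 75.9%, Trav7-3 36.7% and Trav5-4 93.7%. No member lacked a unique window. Of the 52 Trav symbols at 0 UMIs, 49 have a transcript of at least 240 bases and were compared. Of these, 36 had no unique window, and 39 were identical to another V gene over their last 240 bases. The d copy of the insulin-associated gene, Trav5d-4, was at 0 UMIs in both libraries and had 0% unique windows, its tail being identical to that of Trav5n-4, so these data do not say whether it was expressed. The 10 Trbv symbols at 0 are all annotated as pseudogenes.

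**Figure D1:**
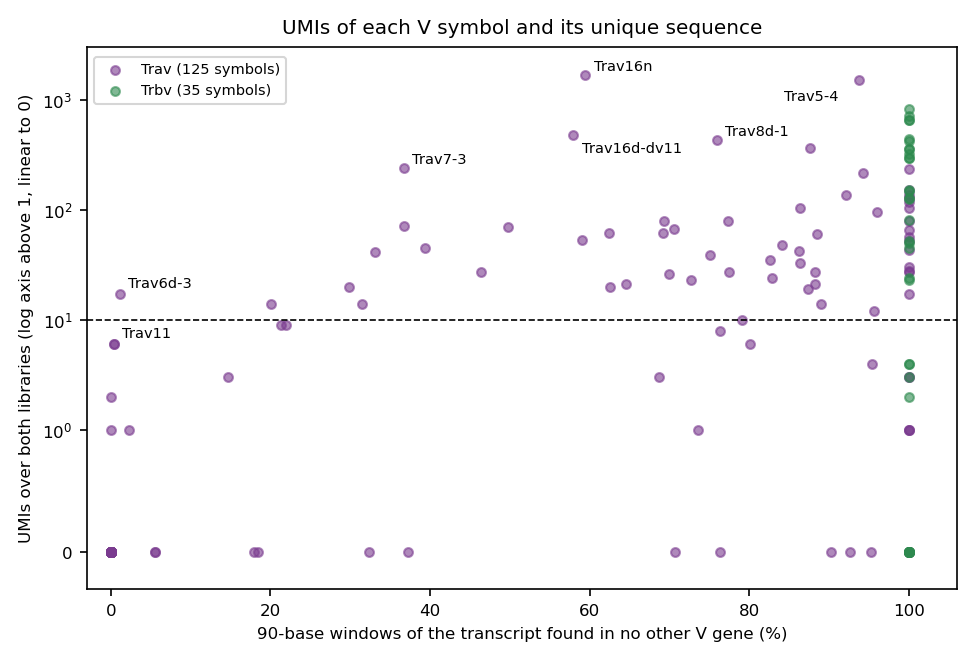
Each point is a V symbol with a transcript of at least 240 bases. The share of its 90-base windows found in no other V gene (x axis, %) is set against its UMIs over both libraries (y axis, log above 1). The dashed line marks 10 UMIs. The Trbv symbols all sit at 100%, while many Trav symbols at 0 UMIs sit at the left edge.

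The UMIs were spread over the copies unevenly. The 39 symbols of the d stretch include 13 members and held 965 Trav UMIs (21.2%) in WT NOD and 476 (14.7%) in the library labelled NOD.Cxcl16-/-. The 34 n symbols include 8 members and held 1406 (30.9%) and 800 (24.7%). The 55 plain symbols include 37 members and held 2186 (48.0%) and 1967 (60.7%). Reads shared by copies are dropped by a count of unique reads, and whether that was done was not given in the sources used here, so the split within a copied family is uncertain.

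The libraries held 13859 and 10554 barcodes with 93553185 and 98681133 UMIs, of which 10960 and 9358 cells were kept. The library labelled NOD.Cxcl16-/- held Cxcl16 at 102 counts per 1e6 UMIs (CPM) against 103 in WT NOD, so this count did not bear out its label. Which part of the gene was deleted is not given in the sources used here, and no difference below is ascribed to the genotype. The libraries share 45 barcode sequences. T-cell classes were set by transcripts, each with at least 1 Cd3e UMI: CD8 cells (Cd8a and Cd8b1 together at least 2, Cd4 0; 2098 and 1465 cells), CD4 cells (Cd4 at least 1, Foxp3 0; 1572 and 1587) and Treg (Foxp3 at least 1; 366 and 572). The CD8 and Treg sets share 21 and 30 cells, and 160 and 123 CD4 cells also met the CD8 count. The marker Cd40lg stood at 81.2 and 66.3 CPM in CD4 cells against 3.11 and 2.96 in CD8 cells. Plasma-cell markers (Jchain, Xbp1, Mzb1) summed to 829 and 2241 CPM in CD8 cells, 1712 and 2161 in CD4 cells and 2571 and 4004 in Treg, and macrophage markers (Adgre1, C1qa, C1qb, Csf1r) to 121 and 310, 775 and 1309, and 886 and 1165, so both lists were higher in the T cells of the library labelled NOD.Cxcl16-/-. Their part in the V gene values was not tested.

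Most of the V gene signal lay in these classes. Of the member UMIs of kept cells, 76.9% in WT NOD and 80.2% in the other lay in CD8, CD4 or Treg cells, 18.2% and 16.2% in other cells with Cd3e, and 4.95% and 3.69% in cells without it. At least 1 V UMI was seen in 54.8% of WT NOD CD8 cells (95% Clopper-Pearson interval 52.6 to 56.9) and 50.1% (47.5 to 52.7) in the library labelled NOD.Cxcl16-/-, in 53.9% and 55.5% of CD4 cells, and in 56.3% and 50.9% of Treg. B cells, which rearrange no T-cell receptor, gave 2.0% and 0.739%. Median depth was 5908 and 6263 UMIs in CD8 cells, 4828.5 and 5458 in CD4 cells, and 4418 and 4764 in B cells. With every cell thinned to 2000 UMIs, the shares became 23.2% and 20.7% in CD8 cells, 26.7% and 23.3% in CD4 cells and 22.3% and 18.8% in Treg, against 0.496% and 0.359% in B cells. Thinning left out 135 and 35 CD8, 110 and 26 CD4, and 25 and 9 Treg cells. All intervals here cover counting error alone, and cells of one clone or mouse are not independent.

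Both chains were seen in fewer cells: 15.1% and 10.5% of CD8 cells, 15.1% and 14.6% of CD4 cells and 14.2% and 12.8% of Treg. The alpha chain was also the better read one for its constant region. In CD8 cells there were 12.6 Trav UMIs per 100 UMIs of Trac, the alpha constant gene, in WT NOD and 9.24 in the other, against 2.23 and 1.83 Trbv UMIs per 100 of the beta constant genes Trbc1 and Trbc2. In CD4 cells the Trav ratios were 12.1 and 10.8 and the Trbv ratios 2.71 and 2.34, and in Treg 9.54 and 7.88, and 2.40 and 1.95. Every one of these ratios was lower in the library labelled NOD.Cxcl16-/-. Trac itself stood at 584 and 528 CPM in CD8 cells, 580 and 524 in CD4 cells and 553 and 529 in Treg.

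A few V genes supplied much of the signal. Over all barcodes, Trav16n had 1137 UMIs in WT NOD and 543 in the library labelled NOD.Cxcl16-/-, and Trav5-4 had 670 and 828. They were followed in the alpha chain by Trav16d-dv11 (267 and 213 UMIs), Trav8d-1 (370 and 61), Trav3-3 (182 and 182), Trav7-3 (183 and 54), Trav13n-4 (100 and 134), Trav3-1 (127 and 89) and Trav13-2 (98 and 53). In the beta chain Trbv12-2 led with 479 and 350 UMIs, ahead of Trbv2 (363 and 339), Trbv15 (366 and 291), Trbv19 (381 and 270), Trbv3 (199 and 239), Trbv20 (167 and 257), Trbv13-2 (212 and 147), Trbv16 (206 and 152), Trbv1 (174 and 149) and Trbv13-1 (173 and 124). The members just inside the limit were Trav9-4 (8 and 2 UMIs) and Trav12-2 (8 and 4), and the symbols just outside were Trav6n-5 (3 and 6), Trav9n-4 (6 and 3) and Trav7-6 (4 and 4).

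For each class, use was then taken as the share of cells with exactly 1 member gene of a chain that carried that gene. In CD8 cells 579 and 331 cells had exactly 1 Trav gene. Trav16n was the most used in both, at 20.9% and 22.4%. The genes that follow are in order of the mean of the libraries, which is not the order in each. Trav8d-1 was at 17.96% (14.9 to 21.3) in WT NOD and 4.23% (2.33 to 6.99) in the other, then Trav5-4 at 5.18% and 9.97%, Trav16d-dv11 at 2.59% and 8.46% and Trav7-3 at 8.98% and 1.81%. The libraries were close for Trav16n and far apart for Trav8d-1, whose intervals do not overlap. Of the Trbv genes, seen alone in 623 and 401 CD8 cells, Trbv3 was used by 10.8% (8.43 to 13.5) and 21.4% (17.5 to 25.8), Trbv19 by 15.2% and 14.0%, Trbv12-2 by 13.8% and 12.2%, Trbv13-3 by 9.31% and 6.73% and Trbv16 by 9.95% and 3.74%.

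In CD4 cells Trav16n, Trav5-4, Trbv12-2 and Trbv19 were again among the 5 genes of their chain with the highest mean use. Trav5-4 was used by 20.8% and 32.3% of the 462 and 471 CD4 cells with 1 Trav gene, and Trav16n by 20.3% and 7.86%. Trav3-3 (5.84% and 5.94%), Trav3-1 (6.28% and 3.40%) and Trav13n-4 (2.38% and 4.03%) came next. Among Trbv genes Trbv15 had the highest mean of the libraries, at 12.4% and 18.6% of 427 and 472 cells, followed by Trbv12-2 (12.4% and 13.3%) and Trbv2 (13.1% and 10.2%, the highest in WT NOD), then Trbv19 (10.3% and 11.9%) and Trbv20 (7.03% and 11.7%).

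In Treg, with fewer cells, Trav5-4 and Trbv15 had the highest mean of the libraries, though Trbv2 was above Trbv15 in the library labelled NOD.Cxcl16-/-. Trav5-4 was used by 22.2% of 99 cells in WT NOD and 29.8% of 151 in the other, Trav16n by 12.1% and 6.62%, Trav3-3 by 6.06% and 7.95%, Trav13n-4 by 4.04% and 5.96%, and Trav7-3 by 5.05% and 3.31%. Trbv15 was used by 17.3% of 104 and 13.4% of 142 Treg, Trbv2 by 8.65% and 15.5%, Trbv16 by 7.69% and 12.7%, Trbv12-2 by 14.4% and 5.63%, and Trbv1 by 7.69% and 9.86%. Since copies are hard to tell apart, use was also summed by family, over the same cells with exactly 1 gene of the chain. This sum still leaves out cells with several Trav genes of 1 family, 97 and 78 of the CD8, CD4 and Treg cells. Trav16n with Trav16d-dv11 was the commonest combination of this kind, so use of the Trav16 family may be undercounted. The Trav16 family was used by 23.7% and 33.2% of CD8 cells with 1 Trav gene, 23.2% and 11.9% of CD4 cells and 14.1% and 9.93% of Treg. The Trav8 family was used by 21.6% and 5.14% of CD8 cells, and the Trav5 family by 6.74% and 13.0% of CD8 cells against 23.6% and 34.6% of CD4 cells. In every class, chain and library 4 to 6 genes covered 50% of the cells. The effective number of genes, taken as the inverse Simpson index of the cells per gene, ran from 8.22 (Trav, CD4 cells, library labelled NOD.Cxcl16-/-) to 13.4 (Trav, Treg, WT NOD).

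**Figure D2:**
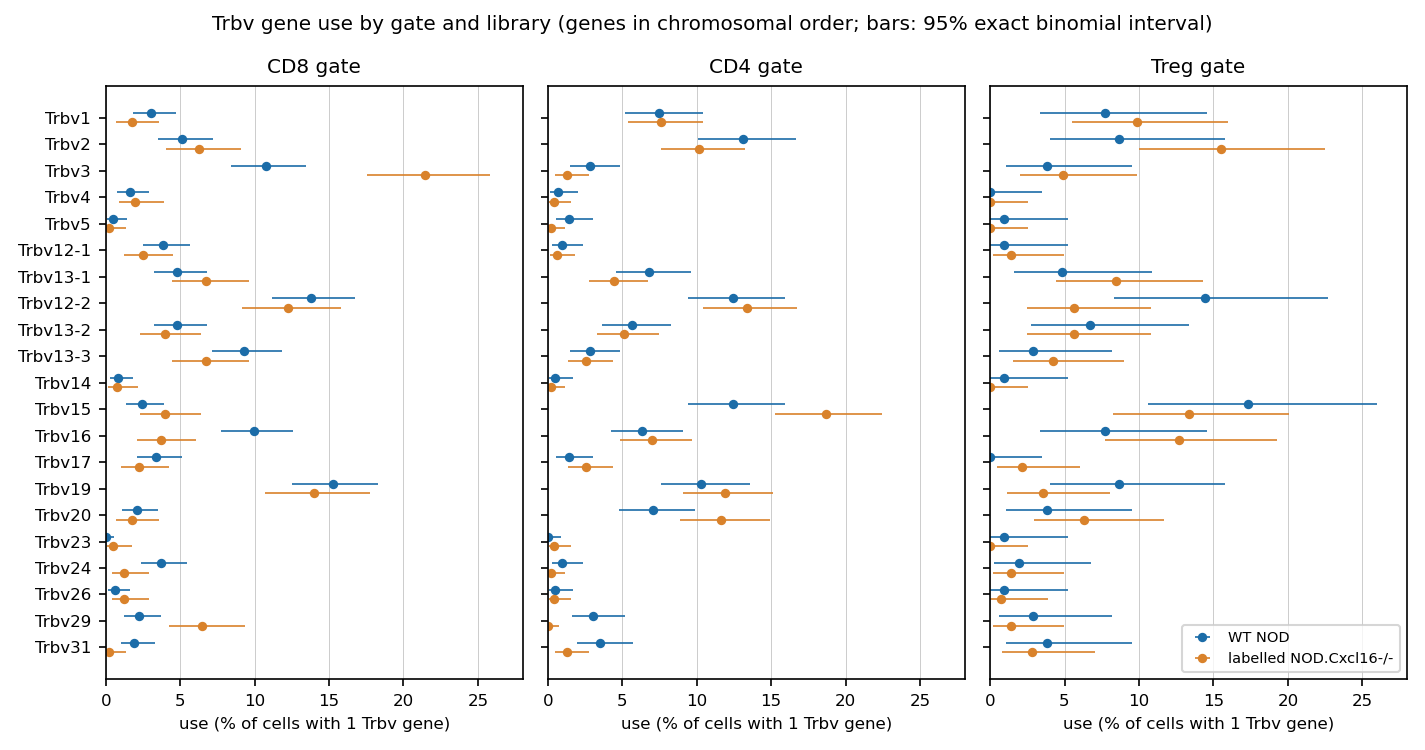
Use of each Trbv member (x axis, % of the cells with exactly 1 Trbv gene) in CD8, CD4 and Treg cells, with WT NOD in blue, the library labelled NOD.Cxcl16-/- in orange and bars for 95% exact binomial intervals. In the library labelled NOD.Cxcl16-/- Trbv3 is the highest in CD8 cells (21.4%) and Trbv15 in CD4 cells (18.6%), while in WT NOD Trbv19 (15.2%) and Trbv2 (13.1%) are.

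CD8 and CD4 cells of the same library were compared next, on CPM of UMIs summed over the cells of a class. A gene was compared if it had at least 20 UMIs over the 2 classes and libraries, counts below 3 were set to 3, and a gene was called where both libraries were past 2-fold in one direction. Of the 79 members 52 had enough UMIs, 4 were called higher in CD8 cells and 7 lower. Over all 14817 genes compared in this way, 1.61% were called higher and 8.56% lower. The members' median log2 ratio was 0.24 in WT NOD and -0.29 in the other, against -0.11 and -0.04 over all genes.

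On the CD8 side, Trbv3 had 23 UMIs in CD4 and 110 in CD8 cells of WT NOD, and 12 and 162 in the library labelled NOD.Cxcl16-/-, log2 ratios of 1.80 (1.14 to 2.52) and 4.01 (3.16 to 4.99). Trav16d-dv11 went from 36 to 123 and from 48 to 105 UMIs (1.32 and 1.38 on the log2 scale). Trav16, its near copy, had 2 and 10 UMIs, then 11 and 23 (1.28, with the first count set to 3, and 1.32). Trbv24, which the reference annotates as a pseudogene, had 8 and 40, then 3 and 11 (1.87 and 2.13). The 2 Trav16 genes share nearly all their sequence, as printed above, and are not independent of each other.

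On the CD4 side, Trbv15 had 135 UMIs in CD4 against 35 in CD8 cells of WT NOD and 151 against 27 in the other, log2 ratios of -2.40 (-2.98 to -1.86) and -2.23 (-2.88 to -1.63). Trbv20 had 51 against 17 and 116 against 19 (-2.04 and -2.36). Trav5-4 had 241 against 92 and 343 against 60 (-1.85 and -2.26). All 3 were lower in CD8 cells by a similar factor in both libraries. Trbv2 (123 against 61 and 115 against 45 UMIs) and Trbv1 (59 against 33 and 60 against 14) had log2 ratios of -1.47 and -1.10, and of -1.30 and -1.85. Trav10 (12 against 5 and 10 against 0) and Trav4-3 (6 against 1 and 13 against 3) rest on few UMIs. Trbv29 differed in direction between the libraries, with 28 UMIs in CD4 and 19 in CD8 cells of WT NOD and 0 and 35 in the other. Trbv3, Trbv15, Trbv20 and Trav5-4 stayed past 2-fold in both libraries under each of the alternatives tried, which the closing section lists, while thinning to 2000 UMIs left 5 members called in place of 11.

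**Figure D3:**
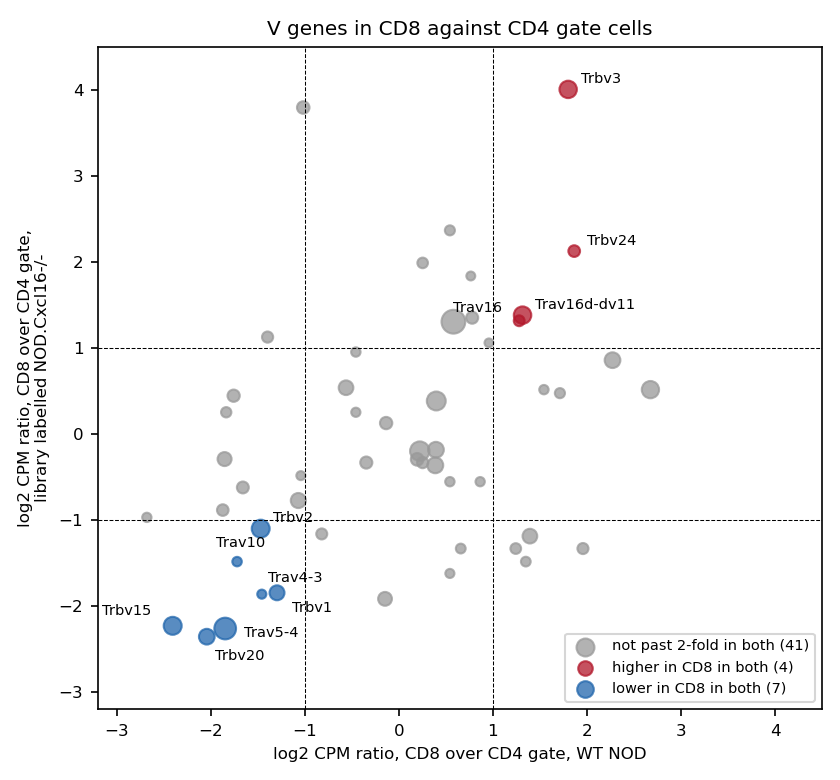
Each point is one of the 52 V genes with enough UMIs, with its log2 CPM ratio of CD8 over CD4 cells in WT NOD (x axis) and in the library labelled NOD.Cxcl16-/- (y axis), point size growing with UMIs and dashed lines at 2-fold. Trbv3 lies far in the upper right, at 1.80 and 4.01, and Trbv15, Trbv20 and Trav5-4 in the lower left.

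Treg set against CD4 cells gave 1 call among 39 members with enough UMIs. Trav7d-3 was higher in Treg, with 9 UMIs in CD4 and 8 in the fewer Treg of WT NOD, and 5 and 11 in the other (log2 1.34, -0.23 to 2.89, and 2.12, 0.48 to 3.99). Over all 14307 genes 1.08% were called higher and 0.846% lower, so the members' share of 2.56% rests on a single gene. No member with at least 50 UMIs was called.

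Between the libraries, CD8 cells differed in 11 of the 35 members with enough UMIs, 2 higher and 9 lower in the library labelled NOD.Cxcl16-/-. Over all 13125 genes 4.11% were called higher and 1.56% lower. The members' median log2 ratio was -0.46, and that of all genes 0.03. The lower members were led by 3 alpha genes. Trav8d-1 had 228 UMIs in WT NOD and 24 in the other (log2 -2.86, -3.53 to -2.25). Trav7-3 had 101 and 7 (-3.46, -4.81 to -2.37). Trav1 had 32 and 3 (-3.03, -5.38 to -1.35). Whether the cells with Trav1 were MAIT cells was not tested. Over all barcodes Traj33, the joining segment of the MAIT chain, had 1 and 0 UMIs.

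Of the other lower members, Trav8d-2 had 26 and 1 UMIs (-2.73 with the count set to 3, interval of the counts themselves -9.67 to -1.71), and Trav2 30 and 11 (-1.06). In the beta chain Trbv13-3, the IGRP-associated gene, had 126 and 35 (-1.46, -2.04 to -0.91), Trbv24 40 and 11 (-1.47), Trbv31 27 and 8 (-1.37) and Trbv16 88 and 30 (-1.16). The 2 higher members were Trav16, with 10 and 23 UMIs (1.59), and Trbv29, with 19 and 35 (1.27). Trav16n, by contrast, had 468 and 249 UMIs and was not past 2-fold. Trav16, Trav7-3, Trav8d-1 and Trbv24 had ratios past 2-fold under each alternative. Fewer members reached the UMI minimum in thinned cells, and 3 members were called after thinning to 2000 UMIs and 6 with a minimum of 50 UMIs. Leaving out the cells that carry both Trav8d-1 and Trbv19 was tried after the data were seen: 12 members were called, among them all 11, and the log2 ratio of Trav8d-1 was -2.30. In bulk sums like these, fewer cells with a gene and less RNA per cell cannot be told apart.

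**Figure D4:**
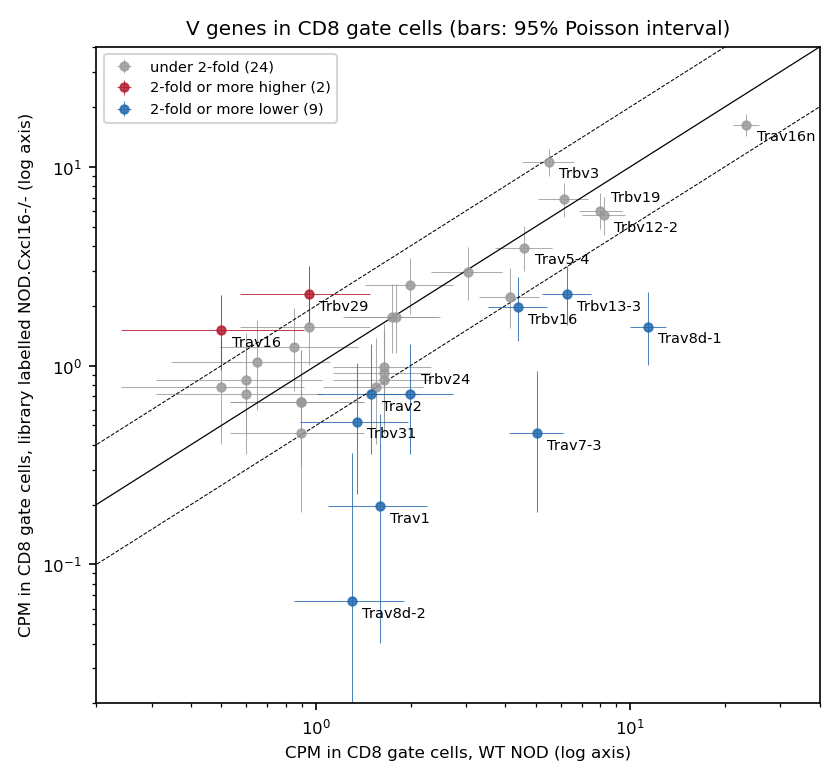
CPM of each of the 35 V genes with enough UMIs in CD8 cells, WT NOD (x axis, log) against the library labelled NOD.Cxcl16-/- (y axis, log), with 95% Poisson bars, the line of equality and dashed lines at 2-fold. Trav8d-1 and Trav7-3, with 24 and 7 UMIs in the second library, lie well below the lower dashed line.

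CD4 cells gave a similar count from fewer UMIs. Of 33 members with enough UMIs 1 was called higher and 10 lower in the library labelled NOD.Cxcl16-/-, against 2.5% higher and 2.04% lower of all 13592 genes. The median log2 ratio was -0.46 over the members and -0.02 over all genes. Trbv29 had 28 UMIs in WT NOD and 0 in the other (log2 -3.54 with the 0 set to 3, upper limit of the counts themselves -3.15). Trav14d-3-dv8 had 23 and 6 (log2 -2.26, -3.84 to -0.92), Trav21-dv12 32 and 11 (-1.86, -3.0 to -0.84) and Trav16n 228 and 120 (-1.25, -1.58 to -0.92). The other lower members were Trav13-2 (32 and 14), Trbv31 (25 and 12), Trav2 (24 and 12), Trbv3 (23 and 12), Trav4-4-dv10 and Trbv12-1 (14 and 7 each). Trav14-1 was the higher one, with 9 and 24 UMIs (1.09, -0.06 to 2.38). Counting cells with a UMI in place of UMIs, chosen after the data were seen, kept 3 of these calls (Trbv29, Trav14d-3-dv8 and Trav21-dv12), and a minimum of 50 UMIs kept Trav16n alone.

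In Treg 16 members had enough UMIs. Trav21-dv12 (3 and 18 UMIs, log2 1.73, -0.04 to 4.14) and Trav13n-4 (5 and 21, 1.22) were higher in the library labelled NOD.Cxcl16-/-, and Trav16n (47 and 31, -1.45, -2.15 to -0.77), Trav16d-dv11 (15 and 8, -1.76) and Trbv12-2 (28 and 19, -1.41) were lower. Over all 12088 genes 2.2% were called higher and 2.03% lower. Treg were the smallest class, and after thinning to 2000 UMIs no member was called.

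Pairs of chains show which of these V genes sat in the same cells. Exactly 1 Trav and 1 Trbv gene were seen in 194 and 92 CD8 cells, 143 and 150 CD4 cells and 30 and 40 Treg. They formed 95 and 69, 83 and 90, and 28 and 38 distinct pairs, of 1218 that 58 Trav and 21 Trbv genes could form. Among these cells one pair was far more frequent than the rest. Trav8d-1 with Trbv19 held 43 of the 194 CD8 cells of WT NOD (22.2%, 16.5 to 28.7) and 4 of the 92 of the other (4.35%, 1.20 to 10.8). The next CD8 pairs were Trav16n with Trbv3 in 7 and 5 cells, Trav16n with Trbv13-3 in 7 and 1, Trav1 with Trbv16 in 7 and 0, and Trav16n with Trbv12-2 in 5 and 1. Random pairing by the share of each gene in these cells would give 13.4 and 0.598 cells for Trav8d-1 with Trbv19. For the 3 pairs with Trav16n, in the order given, it would give 2.97 and 2.93, 3.53 and 1.17, and 3.53 and 2.54. For Trav1 with Trbv16 it would give 0.742 in WT NOD.

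The leading CD4 pairs were Trav5-4 with Trbv20 in 6 and 10 cells, Trav16n with Trbv15 in 8 and 6, Trav5-4 with Trbv1 in 8 and 5, Trav16n with Trbv19 in 8 and 1, and Trav5-4 with Trbv12-2 in 3 and 6. Random pairing would give, in the same order, 2.59 and 3.73, 3.65 and 3.41, 2.59 and 3.44, 3.04 and 1.49, and 3.36 and 4.59. Departures from random pairing were not tested. No Treg pair was in more than 2 cells of a library, the first 5 being Trav16n with Trbv15, Trav5-4 with Trbv16, Trav21-dv12 with Trbv15, Trav5-4 with Trbv13-2 and Trav5-4 with Trbv3. Among cells with exactly 1 gene of each chain, the largest CD8 pair of WT NOD thus held 43 cells, and the largest CD4 pair of either library 10. This rule leaves out cells that show Trav16n beside its near copy Trav16d-dv11. Counted without that rule, Trav16n with Trbv13-3 held 27 CD8 cells of WT NOD, against 51 for Trav8d-1 with Trbv19. Trav16n with Trbv15 then held 21 CD4 cells of WT NOD.

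Each partner of the leading pair was mostly seen with the other in WT NOD. Of the CD8 cells with Trav8d-1 and a single Trbv gene, 44 of 50 carried Trbv19 (88.0%, 75.7 to 95.5), and 5 of 8 did in the library labelled NOD.Cxcl16-/-. Read from the other side, 48 of 65 Trbv19 cells with a single Trav gene carried Trav8d-1 in WT NOD (73.8%, 61.5 to 84.0) and 5 of 14 in the other (35.7%, 12.8 to 64.9). Trav16n was spread over more partners: of 75 cells in WT NOD 17 had Trbv13-3, 14 Trbv3 and 11 Trbv12-2, and of 45 in the other 11 had Trbv3. Trbv16 was joined to Trav1 in 8 of 14 cells in WT NOD and 0 of 10 in the other. Trav7-3 had Trbv13-3 in 6 of 16.

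With cells of several V genes included, Trav8d-1 and Trbv19 were found together in 57 cells of WT NOD, 51 of them CD8, 3 CD4 and 3 other Cd3e cells, and in 7 of the other library, 6 CD8 and 1 CD4. No cell without Cd3e held the pair. Trav16n with Trbv13-3 was in 27 CD8 cells and 1 CD4 cell of WT NOD and in 4 CD8 cells and no CD4 cell of the other. Trav16n with Trbv15 showed the opposite class, 1 CD8 and 21 CD4 cells in WT NOD and 2 and 8 in the other.

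The constant region gives a second view of these cells, because a rearranged beta chain uses either Trbc1 or Trbc2 and one clone keeps its choice. The CD8 cells with Trav8d-1 and Trbv19 of WT NOD held 24.9% of their Trbc UMIs in Trbc1, 49 of the 51 cells had a Trbc1 UMI, the median cell had 23.8% and the highest 57.1%. The 6 such cells of the other library held 31.2%. The 8 cells with Trav1 and Trbv16 had 0 Trbc1 UMIs of 244 (upper limit 1.5%). Trav16n with Trbv3 stood at 49.3% over 15 cells and 45.1% over 11, and Trav16n with Trbv13-3 at 19.5% over 27 cells, of which 11 had no Trbc1 UMI, and 25.4% over 4. Other CD8 cells with both chains held 34.0% and 26.2%. Trbc1 and Trbc2 are close in sequence, so reads of one may be counted for the other, and the number of clones behind a pair was not tested.

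**Figure D5:**
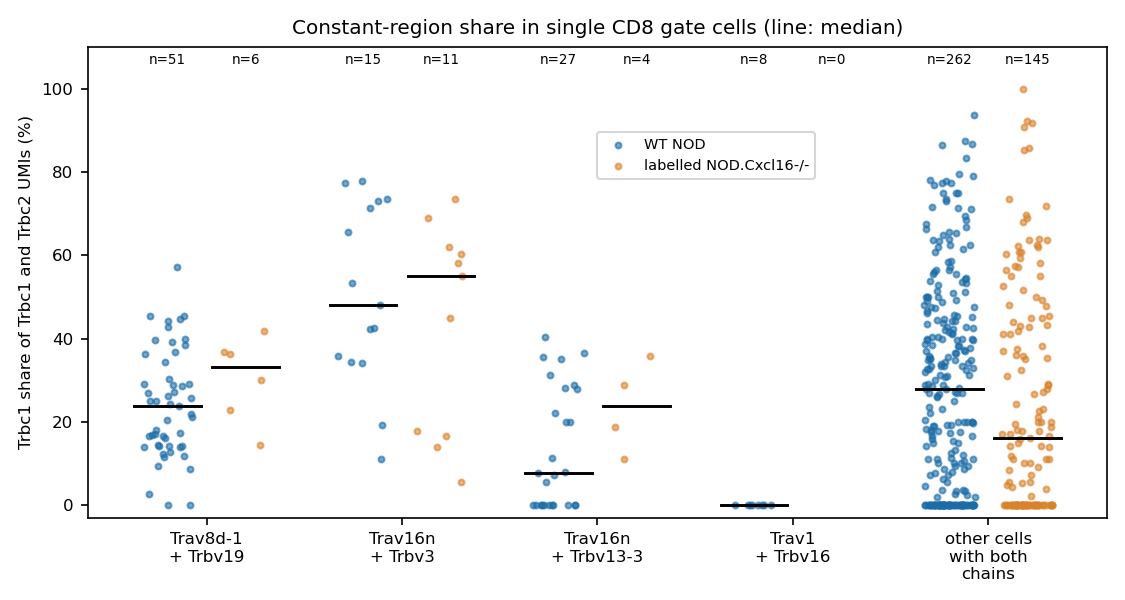
Each point is a CD8 cell with at least 5 Trbc UMIs, with Trbc1 as a share of its Trbc1 and Trbc2 UMIs (y axis, %), by V pair (x axis) and library, with lines at the medians. All 8 cells with Trav1 and Trbv16 lie at 0, while the cells with Trav8d-1 and Trbv19 spread around 23.8% in WT NOD, and the last column holds all CD8 cells with both chains but without Trav8d-1 and Trbv19 together.

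The CD8 cells with Trav8d-1 and Trbv19 were then set beside the other CD8 cells with both chains, on a panel of state genes chosen after their values had been seen. In WT NOD, after thinning to 2000 UMIs, Mki67, a proliferation gene, was seen in 49.0% (34.8 to 63.4) of 51 pair cells and 19.2% (14.7 to 24.5) of 265 others. Gzmk, a granzyme, was seen in 52.9% (38.5 to 67.1) against 29.1% (23.7 to 34.9), and Gzmb, the granzyme of cytotoxic cells, in 21.6% (11.3 to 35.3) against 9.06% (5.89 to 13.2). Tcf7, a factor of resting and stem-like T cells, was seen in 9.80% (3.26 to 21.4) against 20.8% (16.0 to 26.1), and Cxcr6, the receptor of CXCL16, in 35.3% against 28.3%. Unthinned, Mki67 was in 66.7% against 44.4% and Gzmk in 88.2% against 64.3%, at median depths of 14750 and 12421 UMIs. The cells may share a clone, and the intervals cover counting error in 1 library and test nothing.

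For other pairs, genes of the same panel were singled out after their values had been seen, and the pairs were not compared with each other. The 27 WT NOD cells with Trav16n and Trbv13-3 had Pdcd1, an inhibitory receptor, in 29.6% (13.8 to 50.2) against 12.5% (8.87 to 16.8) of 289 others after thinning, and in 92.6% against 54.1% before, with overlapping intervals after thinning. The 15 with Trav16n and Trbv3 had Cxcr6 in 9 of 15 cells (32.3% to 83.7%) against 27.9% of the others, while in the library labelled NOD.Cxcl16-/- 11 such cells had it in 27.3% (6.02 to 61.0) against 24.6%. These sets are small, and their cells may share a clone.

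Within the CD8 class, use was also read by cell state, for Trav8d-1 and Trbv3, singled out after their values had been seen. Trav8d-1 was used by 22.9% (17.95 to 28.5) of the WT NOD cells with Cxcr6 and no Ccr7, the homing receptor of naive and central memory T cells, and by 2.75% (0.571 to 7.83) of those with Ccr7 and no Cxcr6. In the library labelled NOD.Cxcl16-/- its use was 4.03% and 5.06%. Trbv3 stood at 11.1% and 11.2% in WT NOD and 30.3% (23.4 to 37.9) and 8.05% (3.30 to 15.9) in the other. Among cells with an Mki67 UMI Trav8d-1 was used by 29.5% in WT NOD against 13.1% of those without, and by 9.88% against 2.40% in the other. Cells with Mki67 were deeper, with medians of 16801 and 17356 UMIs against 5226 and 5541.

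On summed UMIs in both libraries, the Cxcr6 and Ccr7 cells differed past 2-fold in 1 of 28 members, Trav3-3, which was lower in Cxcr6 cells (14 and 9 UMIs in WT NOD, 13 and 4 in the other, log2 -1.41 and -2.37). Over all 12127 genes 1.97% were called higher and 5.07% lower. The members' share of 3.57% rests on that gene. Trav8d-1 had 13 UMIs in Ccr7 and 135 in Cxcr6 cells of WT NOD (log2 2.61, 1.78 to 3.55) and 5 and 8 in the library labelled NOD.Cxcl16-/- (0.0045, -1.79 to 1.96), so it was past 2-fold in one library alone.

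Several V genes of the same chain were often seen in a cell. Among CD8, CD4 and Treg cells with a UMI of the chain, 2 or more Trav genes were seen in 20.6% (294 of 1429) and 19.1% (223 of 1167), and 2 or more Trbv genes in 15.9% (217 of 1362) and 14.5% (170 of 1172). Cells with several Trbv genes were deeper, with median UMIs of 17577 and 13518 against 6844 and 7884.5. Counting a gene only at 2 UMIs or more lowered the shares to 6.57% and 5.03% for Trav and 4.94% and 4.29% for Trbv. Marked doublets had been removed, and remaining doublets and free RNA were not measured cell by cell.

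Several Trav genes of one family were a common case. Of the cells with several Trav genes, 32.99% and 34.98% had them all in 1 family, against 6.91% and 2.35% for Trbv. The commonest such combination was Trav16n with Trav16d-dv11, in 82 and 67 cells, which is 66.7% and 55.4% of the cells with Trav16d-dv11 and 22.6% and 30.3% of those with Trav16n. Trav16n also accompanied Trav16 in 6 of the 12 and 14 of the 33 cells with Trav16. Trav8d-1 and Trav8d-2 were in no cell together. In the beta chain the commonest combination was Trbv12-2 with Trbv13-2, in 28 and 14 cells, whose genes lie 2031 bases apart on chromosome 6.

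Other genes of the receptor were read with the same rule. Of 25 listed genes of the receptor complex, its rearrangement and its signalling, 22 are in the files. Between libraries, 1 of 19 with enough UMIs was past 2-fold in CD8 cells and 1 of 18 in Treg, each time Tcrg-C1, a gamma-chain constant gene, which was higher in the library labelled NOD.Cxcl16-/-, against 4.11% and 2.2% of all genes called higher in these classes. In CD4 cells 3 of 20 were, Tcrg-C1 higher (against 2.5% of all genes) and Ptcra (the pre-T alpha chain) and Dntt (terminal transferase) lower (against 2.04%). CD8 over CD4 cells gave 2 of 20 higher, the gamma genes Tcrg-C2 and Tcrg-C4, and Dntt lower, against 1.61% and 8.56% of all genes, and Treg over CD4 cells none. Rag1 and Rag2, which encode the recombinase, had 0 UMIs in all 3 classes. The list's median log2 ratio between libraries was -0.03 in CD8 cells and -0.15 in CD4 cells, against -0.46 for the V genes in both.

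The V and joining segments of invariant chains were counted over all barcodes. Trav11 had 6 UMIs in 5 barcodes of WT NOD and 0 in the other, Trav11d had 0 in both, and Trav11n 0 and 1. Trav11 and Trav11d have almost no unique windows (0.394% and 0%), so their counts say little. Trav11n, annotated as a pseudogene, has 100% unique windows. Traj18, the joining segment of the invariant NKT chain, which is also present in unspliced alpha transcripts, had 31 and 56 UMIs. Traj33, that of the MAIT chain, had 1 and 0, while Trav1 had 61 and 18 over all barcodes. All Traj segments together had 140 and 135 UMIs and all Trbj segments 2 and 0.

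Some Trav genes can also join the delta chain, and their symbols carry dv. In gamma-delta cells (Trdc and Cd3e, with no Cd4, Foxp3 or Cd8b1; 300 and 210 cells), the 9 dv members held 20 of 43 Trav UMIs (46.5%, 31.2 to 62.3) in WT NOD and 9 of 27 (33.3%, 16.5 to 54.0) in the other. In CD8 cells they held 11.0% and 19.4%, in CD4 cells 12.5% and 8.55%, and in Treg 10.0% and 10.6%. Trav16d-dv11, the near copy of Trav16n, held 123 of the 162 and 105 of the 145 dv UMIs of CD8 cells. In CD4 cells it held 36 of 129 and 48 of 88. Trav15-1-dv6-1 supplied 11 and 4 of the UMIs in gamma-delta cells, against 5 and 7 in the far more numerous CD8 cells.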

How the data were processed

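Per the submitters' processing notes, reads were processed with Cell Ranger 7.0.1 against mm10; the authors deposited filtered matrices of raw UMI counts for 2 libraries. Whether reads in introns were counted was not given in the sources used here. Cells with at least 500 genes and at most 10% mitochondrial UMIs were kept, and Scrublet (scanpy 1.11.5, seed 1, 2 simulated doublets per barcode) marked the top-scoring barcodes in proportion to the number of barcodes, 1537 in WT NOD and 891 in the other, of which 1292 and 856 had passed the cell filters and were removed. UMIs were summed per class and library and scaled to 1e6 UMIs (CPM). Genes needed 20 UMIs, counts below 3 were set to 3, and a call needed 2-fold; the same rule over all genes gave the background. The script was checked on simulated counts. Shares have 95% Clopper-Pearson intervals and summed counts Poisson ones.

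The members and gene lists were chosen with earlier results of these data known. Named genes were the 10 members per chain with most UMIs, the 5 most used per class and chain, every called member up to 10 per direction, those near the UMI limit, V genes of known background, and the 5 commonest pairs per class. Receptor genes and cell markers were fixed lists. Thinning drew 2000 UMIs per cell, after classes were set. GENCODE M21 (32158 of 32285 gene IDs matched) gave positions and transcripts, and edlib 1.3.9.post1 compared V sequences. Python 3.11.15, numpy 2.4.6, scipy 1.17.1, pandas 2.3.3 and matplotlib 3.10.9 were used. The alternatives varied cell filters, doublets, class gates, depth, UMI minimum, scaling and fold.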

Additional observations from a re-analysis of the deposited data

Results flagged for a closer look

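Trbv29 went opposite ways in 2 classes: its log2 CPM ratio of the library labelled NOD.Cxcl16-/- over WT NOD was -3.54 in CD4 cells, with 0 UMIs set to 3, and 1.27 in CD8 cells. Trav21-dv12 did so in CD4 cells (-1.86) and Treg (1.73). Neither difference between classes was tested, since each class has 1 library per genotype, and the Treg value for Trav21-dv12 turned to -0.31 after thinning to 2000 UMIs.

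V UMIs were also seen outside the classes compared. Of the gamma-delta cells, 19.0% in WT NOD and 16.7% in the library labelled NOD.Cxcl16-/- had at least 1, above the 2.0% and 0.739% of B cells, at 8.46% and 7.39% against 0.496% and 0.359% after thinning.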

How the results depend on the processing

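No paired analysis was possible because each group has 1 library, and for the same reason no replicate could be left out. Thinning to 2000 UMIs lowered the share of cells with a V UMI to 23.2% and 20.7% (CD8), 26.7% and 23.3% (CD4) and 22.3% and 18.8% (Treg). Keeping doublets gave 56.7% in WT NOD CD4 cells. Cells with 2 or more Trav genes came to 23.0% with doublets kept in WT NOD, 6.49% and 7.11% after thinning, 6.57% and 5.03% at 2 UMIs per gene, and 13.8% and 12.4% with families collapsed (chosen after the data were seen). For Trbv they came to 14.0% with strict gates in WT NOD, 3.34% and 4.74% after thinning, and 4.94% and 4.29% at 2 UMIs per gene.

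The number of V genes past 2-fold between libraries in CD8 cells (11) became 3 after thinning, 18 with no UMI minimum, 6 at 50 UMIs and 21 at 1.5-fold. In CD4 cells (11) it became 7 with strict gates, 4 thinned, 26 with no minimum, 1 at 50 UMIs, 18 at 1.5-fold and 3 with cells in place of UMIs. In Treg (5) it became 3 with strict gates, 0 thinned, 16 with no minimum, 1 at 50 UMIs and 9 at 1.5-fold. CD8 over CD4 cells (11) gave 5 thinned and 20 at 1.5-fold. Treg over CD4 cells (1) gave 2 with strict gates, 2 with no minimum, 0 at 50 UMIs, 2 scaled to Trac, Trbc1 and Trbc2, 7 at 1.5-fold and 4 with cells in place of UMIs. Cxcr6 over Ccr7 cells (1) gave 2 with no minimum, 0 at 50 UMIs, 2 scaled to Trac, Trbc1 and Trbc2, 4 at 1.5-fold and 2 with cells in place of UMIs. A higher UMI minimum tests fewer genes and a lower fold admits more. Otherwise the cause was not tested. The share of all genes called was taken under the main rule alone, so the counts under the alternatives have no background share beside them. Thinning turned 5 library ratios: Trav2 (0.19) and Trav8d-2 (0.042) in CD8 cells, Trav4-4-dv10 (0.32) in CD4 cells, and Trav13n-4 (-0.72) and Trav21-dv12 (-0.31) in Treg. Members numbered 85 at 5 UMIs and 71 at 20.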
